A study of Mus musculus with 29 samples.

Results

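The receptive uterus at gestation day (GD) 3.5 was compared between mice given genistein as newborns (GEN) and mice given the vehicle (CON). The comparison took the 3 arrays titled GEN and the 3 titled CON at GD3.5, that is 6 of the 29 arrays of the series. All groups were female CD-1 mice, an outbred stock. GEN pups had received genistein, the soy isoflavone that binds estrogen receptors, at 50 mg per kg per day on postnatal days 1 to 5. CON pups had received corn oil on the same days. Neither group carried a modified allele. Whole uterus was measured, so a gene can differ because fewer cells of a type were present or because each cell held less RNA, and these cannot be told apart. The labels do not say that each array held the uterus of a separate animal, so the p-values describe a spread between arrays. That spread was pooled within the 8 groups of all 29 arrays and is not that of the 6 arrays alone.

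The mouse uterine wall holds a luminal epithelium, glands that bud from it after birth, a stroma and layers of smooth muscle. Just before implantation, progesterone and a late pulse of estrogen make the lining receptive, and the glands secrete factors, among them leukemia inhibitory factor, that the embryo needs to attach. Glands form in the neonatal weeks, and estrogenic compounds given then can disturb their formation and the boundaries between oviduct, uterus and vagina.

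The 6 arrays were of like quality: 73.1 to 78.1% of spots were well above background, the 75th percentile of intensity was 1610 to 1840, and 0 spots were saturated. CON 1 and GEN 1 shared slide 1, CON 2 and GEN 4 shared slide 3, GEN 3 lay on slide 2, and CON 3 was the sole array on slide 4, scanned separately. Levels are given as log2 intensity minus the 75th percentile of the array, so a level of 0 is a bright spot and levels near -9 are background. All 14 smooth muscle genes and all 17 simple epithelium genes tested were well above background on all 6 arrays. So were 17 of 18 tested genes of the stroma. Genes were tested only if well above background on at least 3 of the 6 arrays. Of all 20401 genes tested, 19076 were so on all 6 arrays, so these counts are no check of the organ.

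Of 20401 genes, 21 passed the threshold of an adjusted p under 0.05 (limma, Benjamini-Hochberg over all genes tested), which is 0.103% of genes. Of these, 9 rose in GEN (0.0441%) and 12 fell (0.0588%). The split was 6 higher and 4 lower after quantile normalization, and 11 higher and 25 lower when arrays were scaled to their median. The median difference over all genes was -0.03 on the log2 scale, and the median standard error was 0.238. Of the 20401 genes, 9108 were positive and 11293 negative, which is the background for the counts of signs in the gene lists. At an unadjusted p under 0.05, 493 genes were higher (2.42%) and 637 lower (3.12%), and these shares are the background for the gene lists described here. Every GEN array stood above every CON array for 7.87% of genes and below for 12.4%. All 21 genes called separated in one of these ways. For 7 of them 0 arrays of the dimmer group were well above background, so the brighter group alone brought them into the test. Of the 21, 18 have gene symbols and 3 carry a clone or accession name.

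**Figure D1:**
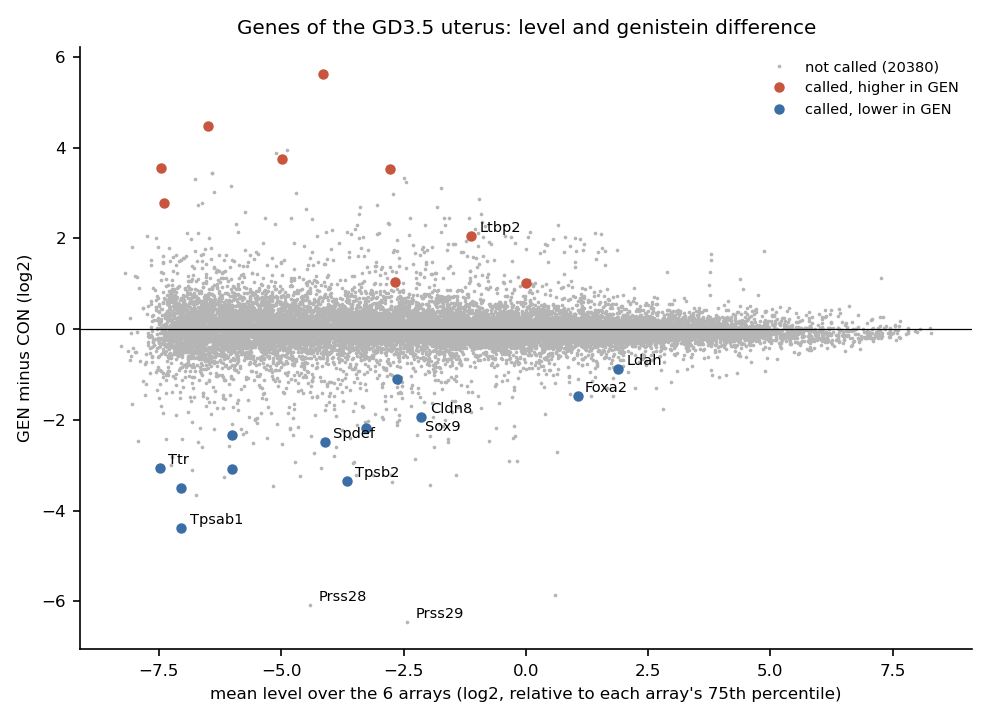
Mean level over the 6 arrays (x axis, log2 relative to the 75th percentile of each array) against the GEN minus CON difference (y axis, log2) of 20401 genes, with called genes in red (higher in GEN) or blue (lower). Most genes lie near 0, and the protease genes Prss28 and Prss29 lie lowest without being called.

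**Figure D2:**
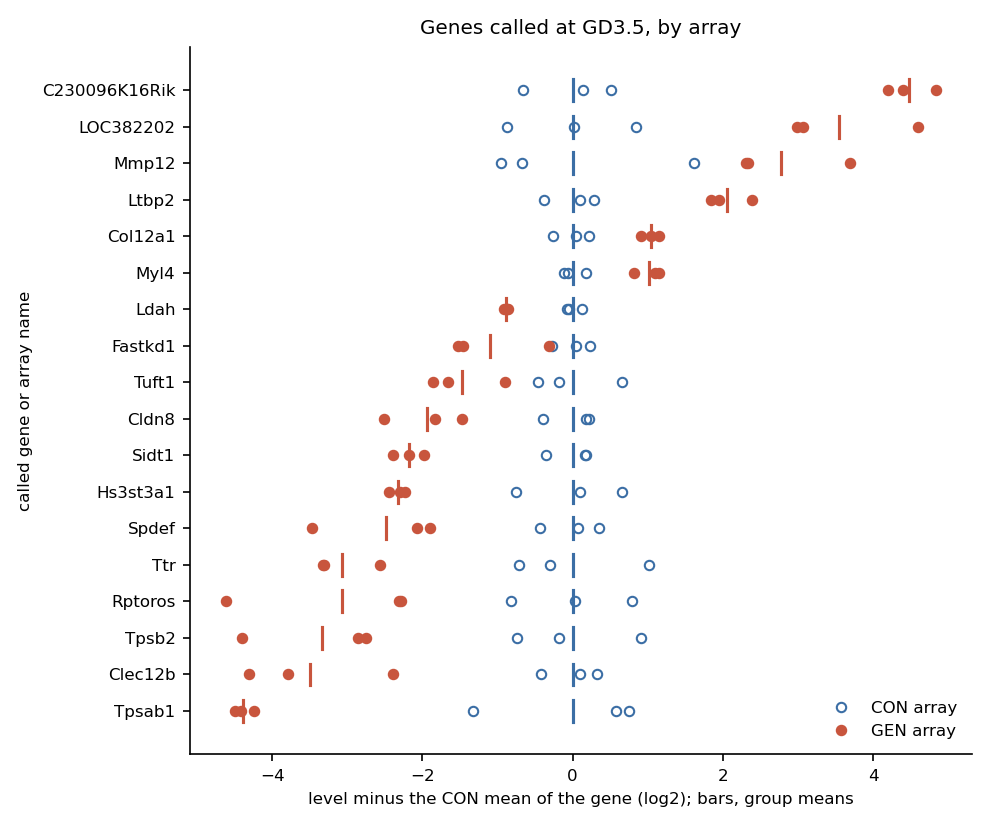
Level of the called genes or array names described here on each array, minus the mean of the 3 CON arrays (x axis, log2), with open blue circles for CON, filled red circles for GEN and bars for group means. In each row the GEN circles lie on one side of all CON circles, with the narrowest gap for Fastkd1.

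The calls differed in how much they owed to single arrays. Ldah and Ttr kept an adjusted p under 0.05 when any one of the 6 arrays was left out, with largest values of 0.00845 and 0.0482. Myl4 lost its call without GEN 3 (0.0675). For Sidt1 the omission of GEN 1 or GEN 3 ended the call (up to 0.0700). For Ltbp2 that of CON 3, GEN 1 or GEN 3 did (up to 0.110). Spdef lost it without CON 1, CON 2, GEN 1 or GEN 3 (up to 0.178), Col12a1 without CON 2, GEN 1, GEN 3 or GEN 4 (up to 0.124), Tuft1 without CON 1, CON 2, GEN 3 or GEN 4 (up to 0.320) and Fastkd1 without CON 2, CON 3, GEN 3 or GEN 4 (up to 0.319). Mmp12 kept its call only without CON 2 (up to 0.214), and Clec12b only without GEN 4 (up to 0.281). Tpsb2 (up to 0.214), Tpsab1 (up to 0.197) and Hs3st3a1 (up to 0.197) kept theirs only without CON 3, Rptoros only without CON 2 (up to 0.290), and Cldn8 lost its call without each of the 6 arrays in turn (up to 0.289). Of the clones, C230096K16Rik (at least 9.65-fold higher) lost it without each array (up to 0.211) and LOC382202 (at least 3.57-fold higher) kept it only without CON 1 (up to 0.290); both are named here after their values were seen.

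Most calls also depended on how the arrays were fitted. With slide as a fixed block 8 of the 21 calls were kept and 13 lost: Ldah, Ttr, Sidt1, Spdef, Hs3st3a1 and Tpsb2 kept theirs, while Myl4 (limma adjusted p = 0.101), Ltbp2 (0.0960), Col12a1 (0.0536), Tpsab1 (0.0536), Tuft1 (0.0629), Cldn8 (0.0960), Clec12b (0.101), Rptoros (0.128), Mmp12 (0.435) and Fastkd1 (0.435) did not. With the 6 arrays of GD3.5 alone 4 calls were kept and 17 lost, among them Ldah (0.0617), Ttr (0.125), Spdef (0.159), Tpsb2 (0.153) and Tpsab1 (0.0876). Under normexp background correction 6 were kept, among them Ldah, Myl4, Spdef, Tpsb2 and Cldn8, and Ttr was not (0.919).

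Among regulators of the posterior tract, which mark vagina and cervix rather than uterus, Pitx1 (2.12, SE 0.67) and Six4 (0.82, SE 0.34) had an unadjusted p under 0.05 in limma, both higher in GEN, and neither was called. Pitx1, a homeobox factor of the hindlimb and tail region, had levels of -8.10, -8.35 and -6.83 in CON and -7.16, -4.87 and -4.86 in GEN, so GEN 1 fell within the CON range. Runx1 had -0.08, Gata3 -0.11 and Trp63, the master factor of stratified epithelium, -0.82 (SE 0.50, unadjusted p = 0.115 in limma). Hoxa13, Hoxd13 and Tbx4 were not well above background on any of the 6 arrays. Among 16 tested genes of stratified epithelium, 9 were positive and 7 negative with a median of 0.11, and the hard keratin gene Krt86 (-3.22, SE 0.79, unadjusted p = 4.56e-04 in limma) had the smallest p.

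Several genes of the uterine glands were lower in GEN, and Spdef and Ttr passed the test. Spdef, an ETS transcription factor of secretory epithelial cells, fell by 2.48 (SE 0.45, limma adjusted p = 0.0237), from -2.79, -2.51 and -3.30 in CON to -6.33, -4.94 and -4.77 in GEN. GEN 1 was the lowest array. Of the 12 listed transcription factors of gland and epithelium, 11 were tested, 7 were negative and 4 of them (Spdef, Sox9, Foxa2 and Prdm1) had an unadjusted p under 0.05, with a list median of -0.33.

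Sox9, which acts in gland development, had 3 probes that all lay lower in GEN (-2.33, -2.40 and -2.47), the last of them above background on 2 arrays. Its levels were -0.90, -1.60 and -0.68 in CON and -2.93, -3.49 and -3.75 in GEN, which do not overlap, but its adjusted p was 0.0855 in limma. Foxa2, the forkhead factor on which gland formation and gland secretion depend, was steady in CON at 1.83, 1.80 and 1.70. In GEN it was 0.92 on GEN 4, 0.74 on GEN 3 and -0.75 on GEN 1, each below all CON arrays. GEN 1 enlarged the difference (-1.48, SE 0.44, limma adjusted p = 0.306), which was -2.58 within slide 1 and -0.88 within slide 3. Prdm1 had -0.60 (SE 0.27). The 4 positive members of the list, Sox17 (0.09), Elf3 (0.22), Ehf (0.18) and Klf5 (0.01), were close to 0.

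The gland products had a median of -1.94 over the 8 of 13 listed genes that were tested, and 6 of the 8 were negative. Of the 8, 6 were well above background on all 6 arrays. Lif, the gene of leukemia inhibitory factor, was listed but was not among those tested. Ttr, which encodes transthyretin, a carrier of thyroid hormone and retinol-binding protein, fell: it was well above background on all CON arrays (-4.93, -6.67 and -6.26) and on none of the GEN arrays (-9.27, -8.52 and -9.26). It was at least 2.52-fold lower (limma adjusted p = 0.00600). Such a bound sets the mean of the bright group against the dimmest measurable signal of each array of the other group, or against the probe where that is brighter.

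Prss29 and Prss28, the implantation serine proteases secreted by glands, had differences of -6.45 (SE 1.76, limma adjusted p = 0.212) and -6.08 (SE 2.22, limma adjusted p = 0.577). Prss29 read 2.03, -0.07 and 0.45 in CON and -5.66, -5.30 and -5.98 in GEN, and Prss28 read 0.06, -2.68 and -1.49 against -7.74, -7.05 and -7.57. The groups were far apart for both genes, yet neither passed: the standard error, which draws on the spread within all 8 groups of the series, was large. Wfdc3, a whey acidic protein family member, had -2.39 (SE 0.59, limma adjusted p = 0.141). Cxcl15 (-1.50) and Aldh1a1 (-0.62) were lower in each GEN array than in each CON array, but neither had an unadjusted p under 0.05. Fxyd4 (0.51) and Calb1 (0.74) were the 2 positive members, also without an unadjusted p under 0.05. For 1 of these 2 each GEN array lay above each CON array. Both are bright, and with them the summed level of the list was 97.4 to 140 in CON and 149 to 161 in GEN, in units of the 75th percentile. The list median was -3.68 within slide 1 and -0.90 within slide 3, and -0.97 under normexp background correction.

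Markers of the lining and the muscle were set beside these genes. The 17 tested genes of simple epithelium, which line the lumen as well as the glands, had a median of -0.03 with 0 at an unadjusted p under 0.05, and their summed level was 126 to 153 in CON and 144 to 153 in GEN. All 14 smooth muscle genes were positive, with a median of 0.29, 0 at an unadjusted p under 0.05, and a summed level of 1040 to 1063 in CON and 1157 to 1277 in GEN. The part of the muscle share in the gland result was not tested.

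Cldn8, Sidt1, Tuft1 and Rptoros also fell. Cldn8, a claudin of tight epithelia, fell by 1.94 (SE 0.39, limma adjusted p = 0.0485), from -0.98, -0.95 and -1.56 to -3.68, -2.99 and -2.64. Sidt1, a transmembrane protein of the family that moves RNA and lipids, fell by 2.18 (SE 0.36, limma adjusted p = 0.0125), and its second probe gave -1.90. Tuft1, which encodes tuftelin, fell by 1.47 (SE 0.30, limma adjusted p = 0.0485), from 2.45, 1.61 and 1.33 to 0.90, 0.14 and -0.06. Rptoros, an RNA gene on the strand opposite Rptor, fell by 3.07 (SE 0.61, limma adjusted p = 0.0485), with GEN 1 the lowest at -9.08.

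Of 21 tested tight junction genes, Cldn8 was called, Vsig1 (-1.50, at least 2.37-fold lower) and Cldn10 (-1.07) had an unadjusted p under 0.05 on the lower side, and Cldn11 (1.05, SE 0.36) did on the higher side. Of the 21 genes 13 were positive, with a median of 0.10. Of 26 tested genes of ion and water transport, 0 were called and 4 had an unadjusted p under 0.05, all lower: the proton pump subunits Atp6v1c2 (-2.39, SE 0.62) and Atp6v0a4 (-1.17, SE 0.49), the water channel Aqp5 (-2.59, SE 0.71) and the carbonic anhydrase Car12 (-1.35, SE 0.53). Cftr, the chloride channel, had 0.74 (SE 0.37).

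In the heparan sulfate list, Hs3st3a1 fell and its paralog had the second smallest p. Both encode 3-O-sulfotransferases, which add a rare sulfate that some ligands and viruses bind. Hs3st3a1 read -4.19, -4.74 and -5.60 in CON and -7.14, -7.07 and -7.29 in GEN, where it was not well above background, and was at least 5.00-fold lower (limma adjusted p = 0.0313). Hs3st3b1 had -1.40 (SE 0.32, limma adjusted p = 0.112) with groups that do not overlap. The glypican gene Gpc1 had -0.38 (SE 0.16). The other 23 genes of the 26 tested had an unadjusted p of 0.118 or more, and the median was -0.05.

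In the Wnt list of 38 tested genes, 0 were called, 5 had an unadjusted p under 0.05 on the lower side and 3 on the higher side. The lower ones included Sp5 (-2.04, SE 0.46, limma adjusted p = 0.0974), a zinc finger gene that Wnt signals switch on, and Lgr5 (-2.34, SE 0.56, limma adjusted p = 0.134), a receptor for R-spondins that marks stem cells. Sp5 read -1.81, -1.07 and -1.97 in CON and -4.36, -3.39 and -3.22 in GEN. The secreted Wnt antagonists Sfrp2 (-0.61) and Sfrp4 (-1.02) were lower as well, and the Wnt receptors Fzd6 (0.59) and Fzd4 (0.32) were higher. The ligand Wnt7a, made by the luminal epithelium, had 0.27 (SE 0.44) with overlapping groups, and the median of the list was -0.05.

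Genes of mast cells, the histamine and protease storing cells of the uterine stroma and muscle, were lower in GEN at GD3.5. The genes Tpsb2 and Tpsab1, which encode the tryptases of mast cell granules, both fell. Tpsb2 read -1.08, -2.17 and -2.73 in CON and -6.40, -4.85 and -4.74 in GEN, a fall of 3.34 (SE 0.62, 10.1-fold, limma adjusted p = 0.0315). Tpsab1 read -4.10, -4.27 and -6.18 in CON and -9.26, -9.35 and -9.09 in GEN, where it was not well above background, and was at least 5.42-fold lower (limma adjusted p = 0.0319).

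These genes are close paralogs, and the array reads each with 1 probe, so the probe sequences show whether the readings can be told apart. They are printed 5′ to 3′ with capitals at bases that differ between the probes in their best ungapped alignment. The Tpsb2 probe lies at chr17:23550604-23550663 and the Tpsab1 probe at chr17:23526786-23526845 of mm7, the build of the array design.
Tpsb2: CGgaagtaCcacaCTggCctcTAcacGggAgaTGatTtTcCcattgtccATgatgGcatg
Tpsab1: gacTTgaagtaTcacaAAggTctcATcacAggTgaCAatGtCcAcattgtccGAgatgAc
Over 57 aligned bases, 39 were identical (68.4%) and 18 differed, spread along the probe.

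Of 18 listed mast cell genes, 13 were tested, 12 were negative and 9 had an unadjusted p under 0.05, all lower, with a list median of -2.48. The list was chosen with earlier results of these data known, so its direction is no separate evidence. Mcpt4, a chymase of connective tissue mast cells, read 0.84, -0.49 and -1.06 in CON and -5.02, -3.21 and -2.81 in GEN (-3.44, SE 0.94, limma adjusted p = 0.212). Cma1, the alpha chymase, read 2.20, 1.04 and 0.54 against -2.20, -1.38 and -1.32 (-2.89, SE 0.76, limma adjusted p = 0.196). Each of these genes has a second probe, which gave -3.21 for Mcpt4 and -2.77 for Cma1. For both genes the GEN arrays lay below all CON arrays, and the gap was widest between CON 1 and GEN 1.

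The granule carboxypeptidase gene Cpa3 had -2.48 (SE 0.87) and Fcer1a, the IgE-binding chain of the high-affinity IgE receptor, had -1.73 (SE 0.51). Mrgprb2, the mast cell receptor for basic secretagogues, was well above background on 3 CON and 0 GEN arrays and was at least 2.89-fold lower (unadjusted p = 0.00164, limma adjusted p = 0.237). Kit, the stem cell factor receptor, which other uterine cells carry too, had -0.83 (SE 0.30) with overlapping groups. Mcpt1 and Mcpt2, chymases of mucosal mast cells, were not well above background on any of the 6 arrays. Hdc, the histamine-forming enzyme, was the one tested member above 0: it read 5.60, 5.67 and 5.39 in CON and 5.92, 5.60 and 5.73 in GEN (0.19, SE 0.58). The uterine epithelium also makes Hdc around implantation.

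Relative to the CON mean, the median of the mast cell list was 0.77, -0.16 and -0.72 on CON 1, CON 2 and CON 3 and -2.97, -1.96 and -1.46 on GEN 1, GEN 3 and GEN 4. The summed level of all 13 tested genes, most of it Hdc, was 45.8 to 58.6 in CON and 50 to 61.8 in GEN, so the groups overlapped. Without Hdc, a choice made after its values were seen, the sum of the other 12 genes was 3.90 to 9.90 in CON and 1.19 to 1.51 in GEN, and the groups did not overlap. Within slide 1 the median difference was -3.82 and within slide 3 it was -1.18. Under normexp background correction it was -0.90.

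**Figure D3:**
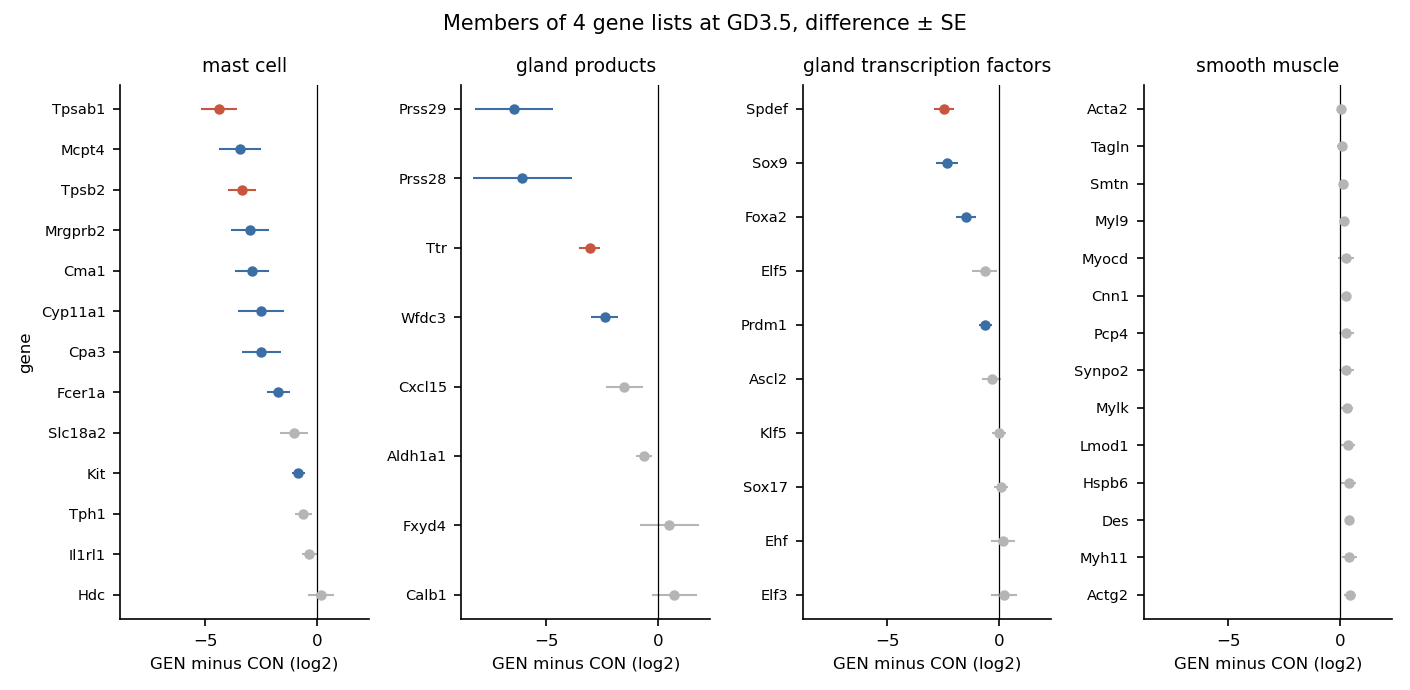
GEN minus CON difference (x axis, log2, point) with its standard error (bar) for the tested genes named here of the mast cell, gland product, gland transcription factor and smooth muscle lists, in red where the adjusted p was under 0.05, in blue where only the unadjusted p was, and in grey otherwise. Mast cell and gland members spread far below 0, while the 14 smooth muscle genes sit slightly above 0.

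The upstream sequences of the mast cell list were searched for a motif. GATA factors are known regulators of the mast cell programme, so the letters AGATAA and TGATAA were searched on both strands in the 250 bases upstream of each start in RefSeq (GRCm38.p6). A match occurred for 8 of the 15 mast cell genes present in that table, against 18.8% of all 27025 genes in it. The matching genes were Cpa3, Fcer1a, Mcpt4, Mrgprb2, Ms4a2, Il1rl1, Slc18a2 and Mcpt1, of which Mcpt1 and Ms4a2 were too dim to test here. The 7 without a match were Cma1, Cyp11a1, Hdc, Kit, Mcpt8, Mrgprb1 and Tph1, so genes with low values in GEN stood on both sides. The called genes Tpsb2 and Tpsab1 are not among the 15. A match describes letters and is no evidence of binding. The count uses no array value, so it describes the listed genes and not their difference between GEN and CON. The upstream windows of 3 genes with low values in GEN are printed with the matches in capitals, from the minus strand of chr3:20242182-20242431 (Cpa3), chr1:173227230-173227479 (Fcer1a) and chr14:56062311-56062560 (Mcpt4).
Cpa3: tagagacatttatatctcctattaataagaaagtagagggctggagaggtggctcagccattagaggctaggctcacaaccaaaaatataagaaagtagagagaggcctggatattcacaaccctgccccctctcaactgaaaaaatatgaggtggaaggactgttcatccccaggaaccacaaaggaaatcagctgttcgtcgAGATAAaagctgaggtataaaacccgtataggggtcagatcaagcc
Fcer1a: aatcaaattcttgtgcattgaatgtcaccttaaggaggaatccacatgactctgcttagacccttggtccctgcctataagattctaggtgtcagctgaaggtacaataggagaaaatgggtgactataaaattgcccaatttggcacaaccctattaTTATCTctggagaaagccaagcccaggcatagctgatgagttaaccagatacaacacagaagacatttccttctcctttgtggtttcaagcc
Mcpt4: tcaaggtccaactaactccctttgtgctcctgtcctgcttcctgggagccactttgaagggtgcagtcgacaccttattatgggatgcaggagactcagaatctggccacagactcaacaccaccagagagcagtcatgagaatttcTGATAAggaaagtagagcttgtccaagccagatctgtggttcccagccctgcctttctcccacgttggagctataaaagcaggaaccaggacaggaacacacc

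The tryptase genes sit beside the gland proteases on chromosome 17, and all 5 neighbours were lower in GEN. In chromosome order these were Prss28, Prss29, Tpsab1, Tpsb2 and Tpsg1, whose probes span 62.7 kb. Prss29 and Tpsb2 were well above background on all 6 arrays (-6.45 and -3.34). Prss28 was so on 1 GEN array, and Tpsab1 on 0, so their sizes have no order along the cluster. Tpsg1, the transmembrane tryptase, was well above background on 3 CON arrays and on 0 GEN arrays, at least 5.65-fold lower (limma adjusted p = 0.0911). Flanking probes lay near 0: the calcium channel gene Cacna1h had 0.09 to 0.48 over 4 probes. Prss34, a protease of basophils and mast cells at the start of the cluster, had -0.45 (SE 0.40, unadjusted p = 0.271 in limma). These neighbours were singled out after their values were seen.

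On chromosome 14 neighbouring proteases lay on opposite sides of 0. The chymase genes Cma1 and Mcpt4 were low in GEN. Most granzymes further along, which uterine natural killer cells and other cytotoxic cells store, were high. Gzmc, a member of the natural killer cell list, read 0.17, -1.28 and -0.39 in CON and 2.38, 1.47 and 1.55 in GEN (2.30, SE 0.72, limma adjusted p = 0.354). Gzme had 2.42 (SE 1.03), Gzmf 2.03 (SE 1.22), Gzmd 1.62 (SE 0.86) and Gzmb 0.89 (SE 0.58), each with GEN arrays above all CON arrays. Gzmg had 0.97 with overlapping groups, and Gzmn was well above background on 0 arrays. None of these granzymes was called, and the Gzmd, Gzme, Gzmf and Gzmg genes are close copies whose probes may share signal. Ctsg, which lies between them, had -0.01 (SE 0.64).

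**Figure D4:**
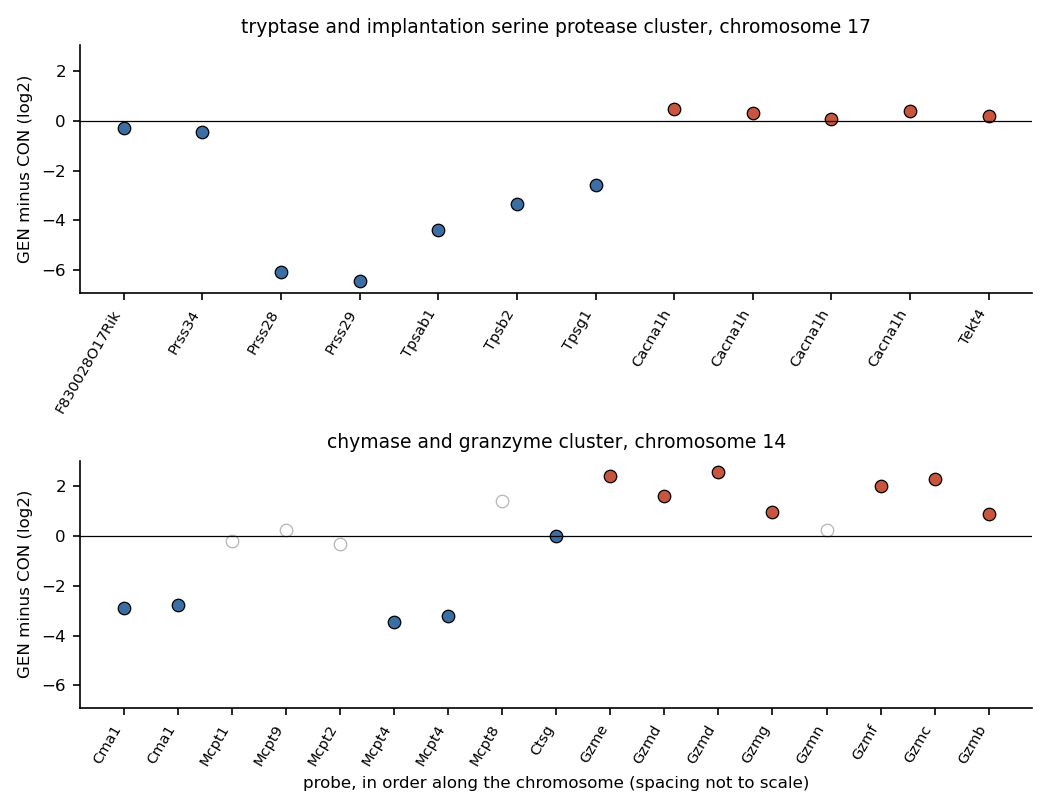
GEN minus CON difference (y axis, log2) of each probe in chromosome order (x axis, spacing not to scale) across the tryptase cluster on chromosome 17 (top) and the chymase and granzyme cluster on chromosome 14 (bottom), in red above 0, in blue below 0 and as open grey circles where fewer than 3 of the 6 arrays were well above background. The 5 genes from Prss28 to Tpsg1 lie below their flanks, which lie near 0, with Prss28, Tpsab1 and Tpsg1 at or near background in GEN, and on chromosome 14 the Cma1 and Mcpt4 probes lie below 0 and the granzymes above.

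Markers of other leukocytes did not share one direction. Of 13 tested natural killer cell genes 10 were negative, with a median of -0.50. The receptor genes Klrk1 (-1.17, SE 0.61) and Klra1 (-0.93, SE 0.48) were lower in each GEN array than in each CON array, while Gzmc and Gzmb lay above. Prg2, which encodes the major basic protein of eosinophil granules, read -5.36, -3.39 and -3.87 in CON and -0.71, -1.44 and -1.53 in GEN (2.98, SE 0.67, limma adjusted p = 0.0974). The other 6 tested eosinophil genes were negative, with the chemokine genes Ccl11 at -0.72 (SE 0.34) and Ccl24 at -0.85 (SE 0.43). The neutrophil granule genes Camp (3.43, SE 1.16) and Ngp (3.31, SE 1.19) were well above background on 1 CON array each and were highest on GEN 1 (-1.01 and -1.60). GEN 3 and GEN 4 lay between -7.20 and -6.36, so GEN 1 sets these differences.

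Plasma and B cell genes were positive in 10 of 11 cases (median 0.33), with 0 at an unadjusted p under 0.05, and the list median was 0.99 within slide 1 and -0.61 within slide 3. Clec12b, an inhibitory lectin receptor of immune cells, fell: it read -4.97, -5.19 and -5.72 in CON and was not well above background in GEN, at least 3.99-fold lower (limma adjusted p = 0.0485). In the macrophage and dendritic cell list 13 of 18 genes were negative, with a median of -0.12 and the mannose receptor gene Mrc1 at -0.60 (SE 0.23). The 1 called member of this list, Mmp12, was higher and is given below with the matrix genes. T cell, MHC class II and interferon-response genes had 0 members at an unadjusted p under 0.05.

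Complement genes included some of the larger differences outside the calls. Masp2, which encodes a serine protease of the lectin pathway, read -1.77, -1.32 and -1.43 in CON and -5.25, -4.45 and -4.48 in GEN (-3.22, SE 0.66, limma adjusted p = 0.0532). Its other probes gave -3.82 and -5.68 and were well above background on 4 and 3 of the 6 arrays. Cfi, the factor that cleaves activated complement, had -3.21 (SE 0.80, limma adjusted p = 0.150), with -2.90 within slide 1 and -4.14 within slide 3. Hc, which encodes the fifth complement component, was higher at 1.62 (SE 0.43, limma adjusted p = 0.202). Of the 23 tested genes of the complement list, which does not hold Masp2, 16 were negative, with a median of -0.24.

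Among matrix genes, Ltbp2, Col12a1 and Mmp12 rose in GEN. Ltbp2, which binds latent TGF-beta and fibrillin microfibrils, read -2.04, -1.86 and -2.53 in CON and 0.24, -0.20 and -0.30 in GEN, a rise of 2.06 (SE 0.35, limma adjusted p = 0.0140). A second probe named Ltbp2 lies on the opposite strand, so it may not read the same transcript, and was at background on all 6 arrays. Col12a1, a collagen that sits on the surface of collagen fibrils, rose by 1.04 (SE 0.18, limma adjusted p = 0.0202), from -3.15, -3.46 and -2.98 to -2.04, -2.15 and -2.28, with 1.11 and 1.18 within slides. Mmp12, the macrophage metalloelastase, was well above background on 0 CON and 3 GEN arrays and was at least 2.75-fold higher (limma adjusted p = 0.0315). Its direction turned under normexp background correction (-0.15, limma adjusted p = 0.963), where CON 3 had a 5th percentile of levels of -2.46, GEN 1 had -3.60, and the other 4 arrays ranged from -5.02 to -4.82.

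Of 22 tested elastic fibre genes, Ltbp2 was called, and the microfibril genes Mfap4 (1.25, SE 0.36, limma adjusted p = 0.259) and Fbn2 (0.81, SE 0.29) were higher and Fbln1 (-0.64, SE 0.29) lower at an unadjusted p under 0.05. Elastin itself, Eln, had 0.41 (SE 0.27). Collagen genes were positive in 20 of 27 cases, but their median was 0.12 and fell to 0.03 without CON 2, and Col12a1 was the one member with an unadjusted p under 0.05. In the TGF-beta, activin and BMP list of 36 tested genes, 3 had an unadjusted p under 0.05, all higher, among them the ligand Bmp4 (0.44, SE 0.19) and the receptor Tgfbr1 (0.26, SE 0.10). In the FGF list of 16, the receptor Fgfr1 (0.43, SE 0.19) and the ligand genes Fgf12 (0.73, SE 0.33) and Fgf1 (1.24, SE 0.56) did, also higher. The FGF median of 0.24 became -0.19 under normexp.

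Among genes of contractile and neural tissue, Myl4, the atrial and fetal myosin light chain, rose by 1.02 (SE 0.16, limma adjusted p = 0.00600), from -0.33, -0.57 and -0.63 to 0.31, 0.64 and 0.59. A second probe of Myl4 gave 0.94. The smooth muscle genes were also positive, as given above, with Actg2 at 0.46 (SE 0.26), Myh11 at 0.43 (SE 0.34) and Des at 0.42 (SE 0.20). Gdnf, a growth factor for neurons, had 0.89 (SE 0.20, limma adjusted p = 0.0974).

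The genes of the retinoic acid degrading enzymes differed in opposite directions, and neither was called. Cyp26b1 read -2.23, -1.77 and -2.19 in CON and 1.29, -0.35 and -0.08 in GEN (2.35, SE 0.52, limma adjusted p = 0.0889). Cyp26a1, which the luminal epithelium makes around implantation, read 0.75, -1.80 and -0.05 in CON and -1.83, -3.08 and -3.49 in GEN (-2.43, SE 0.77, limma adjusted p = 0.369). The GEN arrays lay above all CON arrays for Cyp26b1 and below all for Cyp26a1. Rdh10, a retinol dehydrogenase, had -0.42 (SE 0.18).

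The key genes of hormone action and receptivity given next were not called. The receptors Pgr (0.12, SE 0.21) and Esr1 (0.01, SE 0.20), the progesterone target Ihh (0.34, SE 0.61), the patterning genes Hoxa10 (-0.21, SE 0.14) and Msx1 (-0.22, SE 0.50) and Bmp2 (0.27, SE 0.62) had overlapping groups. Hand2, the stromal mediator of progesterone action, had -0.57 (SE 0.36) and Hoxa11 had -0.26 (SE 0.18), with each GEN array below each CON array. Ltf, the estrogen-induced lactoferrin, ranged from 1.08 to 4.16 in CON and from 2.38 to 3.11 in GEN (0.03, SE 1.56). Areg, an early target of progesterone, had -0.49 (SE 1.35). The wide standard errors of Ltf and Areg leave large differences in either direction undetectable with 3 arrays a group.

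Of 25 tested estrogen-response genes 17 were negative, with a median of -0.46 that went to -0.00 without CON 1 and to -0.69 without CON 3. The keratin gene Krt23 (-2.70, SE 0.63, limma adjusted p = 0.112) and Aqp5 had an unadjusted p under 0.05. Of 26 tested genes of progesterone action and the receptive phase, Cyp26b1 and Cyp26a1 did, and the median was -0.12. The LIF and gp130 cytokine list had 15 tested genes, Lif itself not among them, and 12 were negative. Its member Socs3, the feedback inhibitor that STAT3 switches on, had -0.91 (SE 0.30, limma adjusted p = 0.464). None of the 19 tested steroid receptor and cofactor genes, and none of the 29 cell cycle genes, had an unadjusted p under 0.05. The cell cycle median ran from -0.54 to 0.38 across the CON arrays and from -0.38 to 0.15 across the GEN arrays.

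The remaining named genes came by size of p. Fastkd1, a mitochondrial RNA-binding protein gene, fell by 1.10 (SE 0.21, limma adjusted p = 0.0359), but GEN 1 at -2.41 lay next to CON 1 at -2.36, so that the difference was -0.04 within slide 1 and -1.49 within slide 3. Its other 2 probes were near background. Of the 20 named genes that followed the calls in order of p, 16 were lower and 4 higher, and their adjusted p reached 0.112. They included the nuclear receptor genes Nr1i2, the xenobiotic sensor (-2.41, SE 0.51, not well above background in GEN), and Nr1h4, the bile acid receptor (-2.36, SE 0.51), as well as the fucosyltransferase gene Fut2 (-1.38, SE 0.29), the glycine methyltransferase gene Gnmt (-1.47, SE 0.33), the chromatin factor gene Prdm8 (-1.60, SE 0.33) and Mia (-1.92, SE 0.39). Fut2, which makes fucosylated glycans of the epithelial surface, read -1.47, -2.11 and -2.08 in CON and -3.14, -3.31 and -3.35 in GEN. The retroviral restriction gene Fv1 was higher (1.47, SE 0.31).

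Apart from the endothelial list and the ovary and oviduct list, the other lists held few or no differing genes. Of 18 tested Hox and patterning genes, Hoxa7 (0.72) had an unadjusted p under 0.05, with 13 negative and a median of -0.22. Single members did in the hedgehog list (Dhh, 0.54, among 15) and the prostaglandin list (Slco2a1, the prostaglandin transporter, 0.63, among 19). Of 23 metalloproteinase genes, Mmp14 (0.36) did besides Mmp12. Of 13 endothelial genes the growth factor receptor Flt1 (0.54) and the claudin Cldn5 (0.64) were higher and Plvap (-0.40) lower. Of 11 tested ovary and oviduct genes 4 had an unadjusted p under 0.05, 1 higher and 3 lower. Among them were the steroid enzyme genes Hsd3b1 and Cyp11a1, the latter also a mast cell list member at -2.49. In all, 14 of the 43 lists had 0 genes called and 0 at an unadjusted p under 0.05, including the EGF family (median -0.09), IGF (-0.06), stroma (-0.18), red blood cell (-0.47), adipocyte (-0.68) and blastocyst (-0.25) lists.

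The differences at GD3.5 were then set beside the same comparison on the other days, which used other arrays. At GD1.5 20 of the 21 called genes had the same sign, and the exception was a clone. At GD4.5 15 had it and at GD5.5 13. The share of all genes with the same sign on both days was not taken, so these counts have no background beside them. The median absolute difference of the 21 genes was 2.78 at GD3.5, where they were chosen, and 1.79, 0.72 and 0.29 at GD1.5, GD4.5 and GD5.5, against 0.13, 0.15 and 0.13 over all genes on those days. Spdef had -2.71, -1.63 and -0.55. The mast cell list had medians of -1.19, -0.80 and 0.02 on those days, and the gland products had -0.82, -1.94 and -0.54. Slides 1 to 3 held arrays of GD1.5 and GD3.5, and other slides held GD4.5 and GD5.5, in another scan, so a change of the effect between the earlier and the later days cannot be told apart from the slides.

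**Figure D5:**
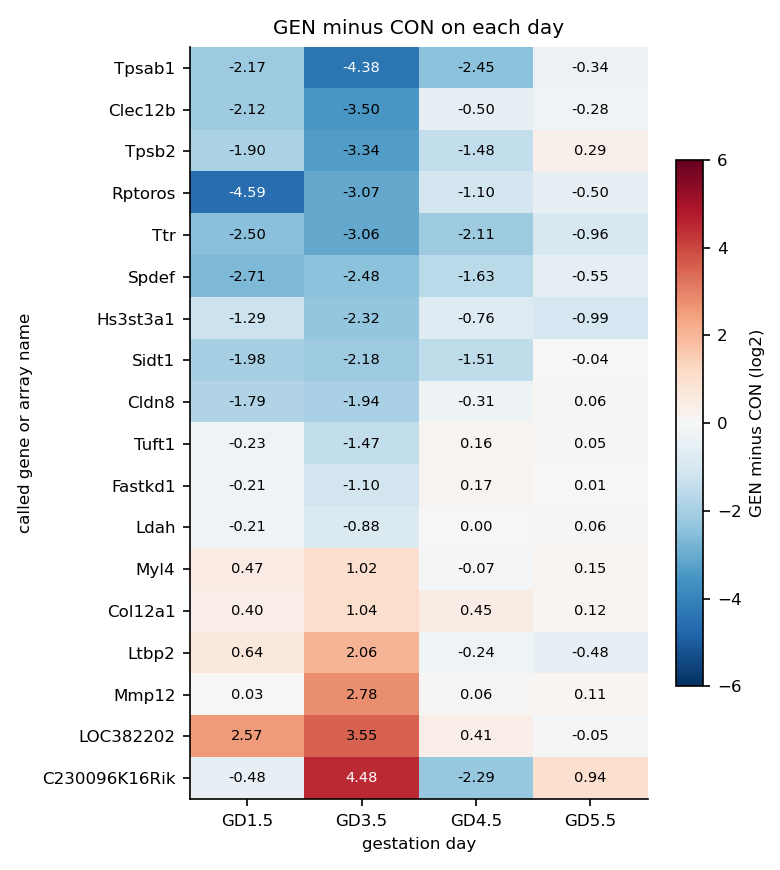
GEN minus CON difference (log2, colour and printed value) of the called genes or array names described here (rows) on each gestation day (columns). Ttr is negative on all 4 days, and Ldah, Fastkd1, Tuft1 and Mmp12 differ at GD3.5 with values between -0.23 and 0.17 on the other days.

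The GD3.5 effect minus the mean effect of the other 3 days was tested for 22696 genes. One gene passed, which is 0.00441% of those tested, and 677 had an unadjusted p under 0.05. That gene was Ldah, a hydrolase associated with lipid droplets. It read 2.26, 2.46 and 2.29 in CON and 1.46, 1.43 and 1.48 in GEN, a fall of 0.88 (SE 0.11, limma adjusted p = 5.45e-04), and the effect was -0.21, 0.00 and 0.06 at GD1.5, GD4.5 and GD5.5. The test of the difference gave -0.84 (SE 0.13, limma adjusted p = 0.0202). The same test gave 2.09 for Ltbp2 (limma adjusted p = 0.234), -3.63 for Masp2 (0.283) and 0.84 for Myl4 (0.337), so for these the effect was not shown to differ between days.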

How the data were processed

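Total RNA of whole uteri was hybridised to 1-colour Agilent arrays, and intensity was read with Feature Extraction 9.5, per the submitters' processing notes. The deposited intensity is the scanner's processed signal, with background subtracted before deposit, per the file headers. Here log2 of it was taken, and the 75th percentile over the 43379 spots that are no controls was subtracted array by array. Marked spots were left out, spots of a probe averaged, and the probe brightest over all arrays stood for a gene. Names came from RefSeq by accession (22951 of 41174 probes), symbol (6659) or synonym (3109), otherwise (8455) from the array. A limma fit of the 8 group means used all 29 arrays. Benjamini-Hochberg adjustment covered 20401 genes well above background on at least 3 of the 6 GD3.5 arrays. The number of arrays limits the precision. The scripts were tested on simulated data.

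Genes to name were drawn from the called genes, the next 20 by p, 15 key genes (14 tested) and the genes called between days. Up to 6 genes of smallest p in each of 43 lists (754 symbols, 674 tested) were added. Not all of these genes are named. The members and lists were chosen with earlier results of these data known. Neighbouring genes, clones and other list members were added after their values were seen. The deposited value table of the series held the same intensity (largest relative difference 0%). Deviations from the group means gave correlations of -0.093 between CON 1 and GEN 1 and -0.0461 between CON 3 and GEN 3. These values cannot show whether equal replicate numbers pair the samples, and the main fit used no pairing. Alternatives covered background, scaling, filter, probe rule, slide, replicate block, arrays fitted, weights, variance model and each array left out. Some genes, called ones among them, are not reported here, though the counts over all genes hold them.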

Additional observations from a re-analysis of the deposited data

Results flagged for a closer look

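Ldah is listed because its GEN minus CON difference at GD3.5 differed from the mean difference of the other 3 days by -0.84 (SE 0.13, limma adjusted p = 0.0202), the one gene of 22696 to pass. The test also chose the gene, so the value is a description. Ldah read lower on each of the 3 GEN arrays at GD3.5 than on each CON array, and the effects on GD1.5, GD4.5 and GD5.5 were -0.21, 0.00 and 0.06. The array has 1 Ldah probe. The difference between days did not pass under normexp correction, median scaling, slide as a fixed block, a minimum of 2-fold or the replicate block, nor without CON 2, CON 3, GEN 3 or GEN 4.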

How the results depend on the processing

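Against 21 calls, there were 6 with normexp (6 of the 21 kept), 10 with quantile normalization (10 kept), 36 with median scaling (21 kept), 8 when all 6 arrays had to be above background (8 kept, 10 not tested), 13 with slide as a fixed block (8 kept), 12 with the GD3.5 arrays alone (4 kept) and 662 with array weights (21 kept). Leaving out 1 array gave 4 to 23 calls: 20, 23 and 12 without CON 1, CON 2 and CON 3, and 8, 4 and 9 without GEN 1, GEN 3 and GEN 4. With the replicate block 7 genes were called, 3 of them among the 21. The 1 gene in the test between days became 0 with normexp, median scaling, slide as a fixed block, the replicate block and a minimum of 2-fold, 2 with the mean over probes and 58 with array weights, and 0 to 7 without 1 array. Mmp12 reversed with normexp (-0.15). The other alternatives left 19 to 28 calls. The cause was not tested. With 3 arrays a group and a median standard error of 0.238, small differences were not detectable.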
